A study of Zea mays with 48 samples.

Results

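The genes described here are 3 maize MADS-box genes of the AGAMOUS type, chosen by their gene identifiers out of 39656 gene models. They are zag1 (GRMZM2G052890), zag2 (GRMZM2G160687) and GRMZM2G359952. RefSeq's names table for the B73 assembly lists the third under AGAMOUS, M2, MADS35 and ZMM2, and gives the name zmm2 to a separate entry as well, so it is called MADS35 below. MADS-box proteins are transcription factors that bind DNA in pairs or larger complexes and set the identity of floral organs. AGAMOUS-type genes act in the stamens, the carpel and the ovule, and some of them go on working in the tissues of the ovule that become the seed coat. In maize, zag1 is needed for the ear florets to stop growing after the carpel has formed, and zag2 is known for its transcripts in the carpel and ovule. These roles are background.

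Messenger RNA was sequenced from kernels of reciprocal crosses between the inbred lines B73 and Mo17. In MB the seed parent was Mo17 and the pollen came from B73, and in BM the seed parent was B73 and the pollen came from Mo17, so all embryos and endosperm were hybrid and the surrounding maternal tissue was inbred. The groups were endosperm at 5 days after pollination (DAP), embryos cut out by laser microdissection (LCM) at 3 and 5 DAP, and embryos at 5, 7, 9, 11 and 13 DAP whose labels do not mention a laser and which are called manual embryos below. Each of these 8 sample kinds had 3 MB and 3 BM libraries, 48 in all, made from pools of embryos or endosperm from at least 3 ears per replicate.

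Libraries held 7130090 to 21698127 counts, and levels are given in CPM, a gene's counts scaled to the library's total. Read counts of the 3 genes were low: they summed to 1090 for zag1, 1973 for zag2 and 996 for MADS35 over all 48 libraries. A count of 0 was given the upper limit that 3 counts set. That limit covers counting error only. The p-values below measure the spread between these pools. Endosperm markers, a list of 12 genes, summed to 42.7 to 24500 CPM per library and embryo markers, a list of 4 genes, to 62.2 to 1880 CPM. These sums are no measure of tissue content: the endosperm list reached higher sums in 5 DAP embryos than the 1090 to 3220 CPM of endosperm itself, and the embryo list's wox2a had its highest group mean, 39.1 CPM, in BM endosperm. MB manual replicate 3 at 7 DAP and MB LCM replicate 1 at 5 DAP stood apart from their group in the levels of the 3 genes and in endosperm marker sums. Their mean correlations with their group, 0.99 and 0.98, were matched by libraries of other groups. Results that rest on either are given without it too. BM replicate 3 and MB replicate 1 of the LCM embryos at 3 DAP had low correlations with their group, 0.92 and 0.933.

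The 3 genes carry an ovule label, which few other genes could check. Of the 4 other gene models listed as ovule or maternal markers, zmm17 (a Bsister MADS-box gene), p1 (a regulator of pericarp pigment) and GRMZM2G316366 had group means of at most 0.474 CPM. The fourth, GRMZM2G492156, shares the disputed name zmm2 and took a course opposite to that of the 3 genes in manual embryos, with a mean of 12.9 ± 2.97 CPM at 13 DAP against 6.67 ± 2.06 CPM at 5 DAP (SD, n = 6 each). A gene outside that list, m1, described below and chosen after its values were seen, went the way of the 3 genes there. With genes on both sides, the 3 are described by name and not as a measure of ovule tissue. In whole tissue pools, fewer cells of a type and less RNA per cell cannot be told apart.

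In manual embryos all 3 genes were lower at 13 than at 5 DAP, and all 3 were low in endosperm. The LCM embryos at 3 DAP, the youngest, did not share 1 level: zag1 and MADS35 averaged 11.6 and 2.43 CPM in MB and 0.404 and 0.353 CPM in BM, the BM means being close to those of BM at 13 DAP (0.372 and 0.391 CPM). zag1 reached 1 CPM in 20 of 48 libraries, zag2 in 30 and MADS35 in 20, and their highest single values were 18.0, 13.5 and 5.9 CPM. The plot of levels by library shows these values.

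**Figure D1:**
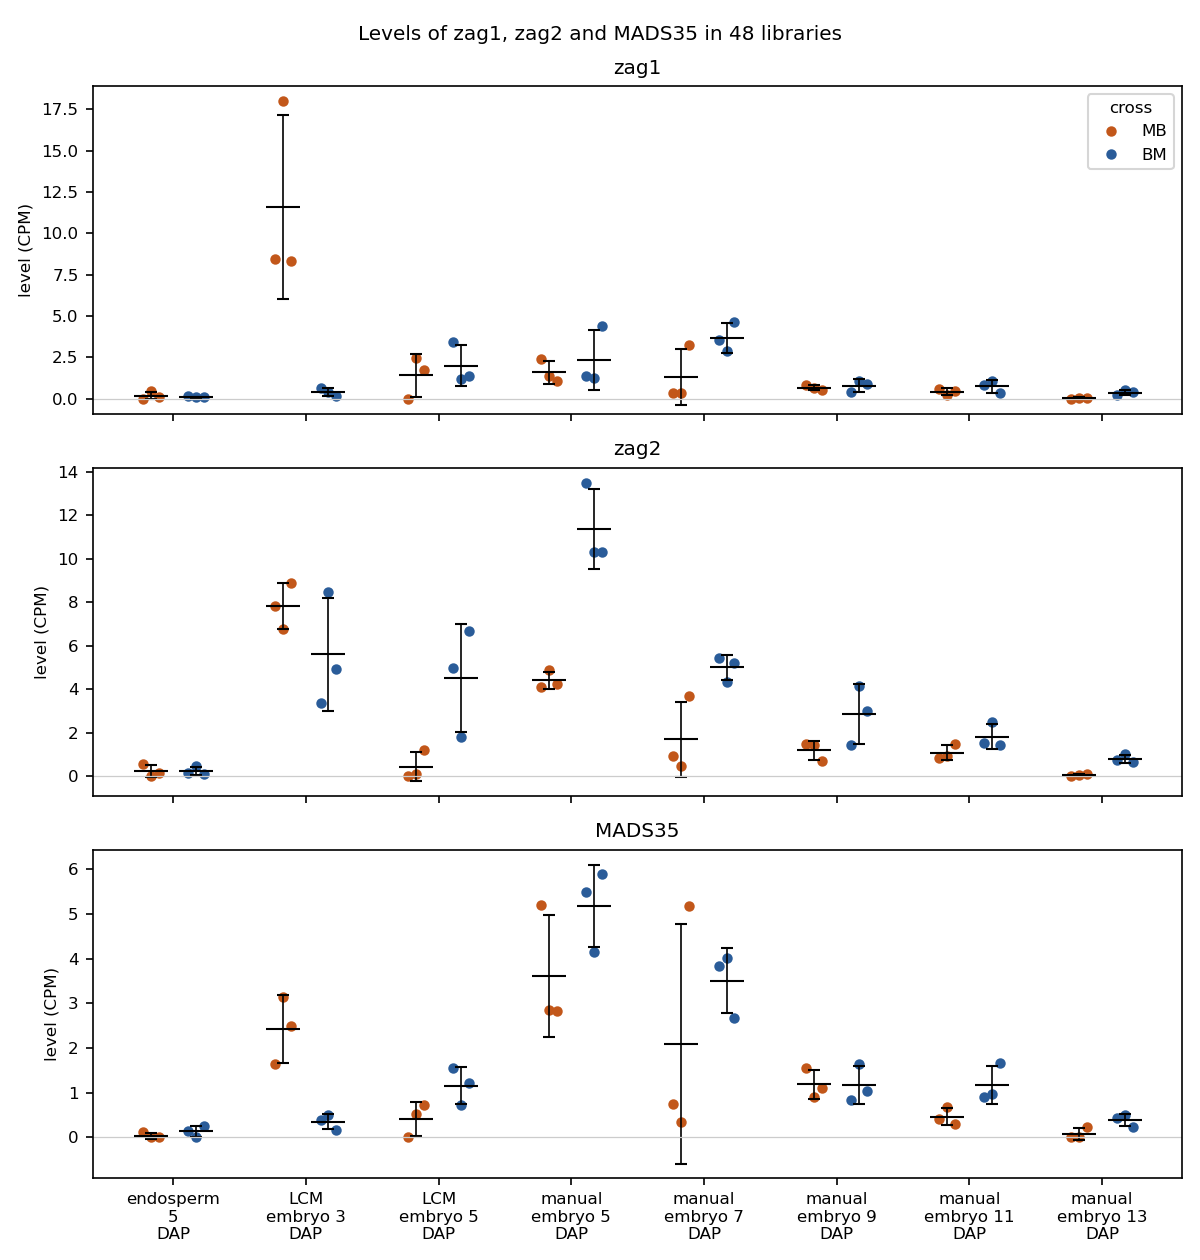
Levels of zag1, zag2 and MADS35 in CPM (vertical axes, separate scales) in 48 libraries of 8 sample kinds, with MB left of BM; points are libraries, and horizontal bars with whiskers are the mean and SD of 3. The 3 MB LCM libraries at 3 DAP hold the highest zag1 values (8.34 to 18.0 CPM), and all 3 genes lie at or below 1.01 CPM at 13 DAP and in endosperm.

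zag1 stood highest in a single group. In LCM embryos at 3 DAP it measured 8.45, 18.0 and 8.34 CPM in MB, against 0.629, 0.415 and 0.168 CPM in BM. These groups did not overlap, and the lowest MB value was above every other zag1 value in the data. Among the 5 DAP embryos, LCM samples measured 0, 2.49 and 1.74 CPM in MB, where 0 counts allow up to 0.278 CPM, against 3.45, 1.18 and 1.4 CPM in BM. Manual samples of that age measured 2.38, 1.35 and 1.06 CPM in MB and 1.36, 1.25 and 4.43 CPM in BM. The crosses overlapped in both kinds of 5 DAP embryo.

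At 7 DAP zag1 measured 0.331, 0.336 and 3.27 CPM in MB, where replicate 3 stood about as high as BM, and 3.55, 2.87 and 4.63 CPM in BM. At 9 DAP it measured 0.81, 0.679 and 0.527 CPM in MB and 0.384, 1.1 and 0.91 CPM in BM. The crosses overlapped at both ages. At 11 DAP it measured 0.618, 0.203 and 0.46 CPM in MB and 0.834, 1.08 and 0.346 CPM in BM. At 13 DAP it measured 0, 0.072 and 0.0772 CPM in MB, which are 0, 1 and 1 reads, and 0.215, 0.507 and 0.395 CPM in BM. As measured, all BM values at 13 DAP were above all MB values, but the 0 counts allow up to 0.236 CPM, above the lowest BM value. In endosperm zag1 measured 0, 0.46 and 0.138 CPM in MB and 0.14, 0.0913 and 0.0872 CPM in BM, a handful of reads in any library.

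zag2 was the most widely detected of the 3. In LCM embryos at 3 DAP it measured 7.82, 6.79 and 8.91 CPM in MB and 3.38, 8.47 and 4.95 CPM in BM, and here, unlike zag1, the crosses overlapped. Among the 5 DAP embryos, LCM samples measured 0, 0.0858 and 1.19 CPM in MB against 5.0, 1.82 and 6.7 CPM in BM. All MB libraries lay below all BM libraries. Manual samples of that age measured 4.12, 4.87 and 4.25 CPM in MB against 13.5, 10.3 and 10.3 CPM in BM, again without overlap and with the highest zag2 values of the data in BM.

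At 7 DAP zag2 measured 0.909, 0.47 and 3.68 CPM in MB, against 5.46, 4.34 and 5.21 CPM in BM. MB replicate 3 was nearer to BM than to the other MB libraries, though still below BM. At 9 DAP zag2 measured 1.47, 1.43 and 0.686 CPM in MB and 1.41, 4.16 and 2.99 CPM in BM, and at 11 DAP 0.823, 0.946 and 1.46 CPM in MB and 1.52, 2.5 and 1.44 CPM in BM. The crosses overlapped at both of these ages. At 13 DAP zag2 measured 0, 0.072 and 0.0772 CPM in MB against 0.751, 1.01 and 0.633 CPM in BM. The 3 MB libraries held 2 zag2 reads in all and the 3 BM libraries 44. In endosperm zag2 measured 0.552, 0 and 0.138 CPM in MB and 0.14, 0.457 and 0.0872 CPM in BM, with the same number of reads, 7, in each cross.

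MADS35 peaked in manual embryos at 5 and 7 DAP. At 5 DAP it measured 5.2, 2.85 and 2.82 CPM in MB and 5.5, 4.15 and 5.9 CPM in BM. At 7 DAP it measured 0.744, 0.336 and 5.19 CPM in MB and 3.83, 4.02 and 2.68 CPM in BM, and MB replicate 3 was the highest of the 6 libraries. The 3 DAP LCM embryos measured 1.64, 3.15 and 2.49 CPM in MB against 0.393, 0.498 and 0.168 CPM in BM. The crosses were apart at 3 DAP and overlapped in manual embryos at 5 and 7 DAP.

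MADS35 in LCM embryos of 5 DAP measured 0, 0.515 and 0.731 CPM in MB and 1.55, 0.726 and 1.21 CPM in BM. At 9 DAP it measured 1.55, 0.905 and 1.11 CPM in MB and 0.833, 1.65 and 1.04 CPM in BM, and at 11 DAP 0.412, 0.675 and 0.306 CPM in MB and 0.91, 0.967 and 1.67 CPM in BM. Only the 11 DAP values parted the crosses among these 3 kinds. At 13 DAP MADS35 measured 0, 0 and 0.232 CPM in MB and 0.429, 0.507 and 0.237 CPM in BM. In endosperm it measured 0.11, 0 and 0 CPM in MB and 0.14, 0 and 0.262 CPM in BM, which are 5 reads in 6 libraries.

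Over both crosses the order of the sample kinds differed between the genes. Mean zag1 levels were 5.99 CPM in 3 DAP LCM embryos, 2.5 in manual embryos of 7 DAP, 1.97 in those of 5 DAP, 1.71 in 5 DAP LCM embryos, 0.735, 0.59 and 0.211 in manual embryos at 9, 11 and 13 DAP, and 0.153 in endosperm. For zag2 manual embryos at 5 DAP came first with 7.88 CPM, then LCM embryos at 3 DAP with 6.72, manual embryos at 7 DAP with 3.34 and LCM embryos at 5 DAP with 2.46, then 2.03, 1.45 and 0.424 CPM at 9, 11 and 13 DAP and 0.229 in endosperm. For MADS35 manual embryos at 5 and 7 DAP came first with 4.4 and 2.8 CPM. LCM embryos at 3 DAP followed with 1.39, manual embryos at 9 and 11 DAP with 1.18 and 0.824, LCM embryos at 5 DAP with 0.789, manual embryos at 13 DAP with 0.234 and endosperm with 0.0854. Endosperm was lowest and 13 DAP next to lowest for each gene. The order by the deposited FPKM values (fragments scaled to transcript length and library depth) was the same for each gene. Few neighbours in these orders were compared by a test. Of those, zag2 at 13 against 11 DAP was called lower, a call that many fits without 1 library lost, as given below. The zag1 means at 7 and 5 DAP and in LCM and manual embryos at 5 DAP, the MADS35 means at 7 and 5 DAP, and the 11 and 9 DAP means of each gene were not called different. The zag1 mean at 3 DAP joins MB and BM libraries that share no common level.

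FPKM, which divides by transcript length, allows the genes to be set side by side. By mean FPKM of a group zag2 was the highest of the 3 in 11 of the 16 groups, zag1 in 3 and MADS35 in 2. In LCM embryos at 3 DAP the order was turned round by the cross: in MB zag1 had 8.89 ± 4.07 FPKM and zag2 6.23 ± 0.776, and in BM zag1 had 0.259 ± 0.112 and zag2 4.38 ± 2.06 (SD, n = 3 each). In manual embryos at 5 DAP zag2 led in both crosses, with 3.12 ± 0.28 FPKM in MB and 8.19 ± 0.886 FPKM in BM, ahead of MADS35 with 2.38 ± 0.869 in MB and 3.36 ± 0.517 in BM. No test was made between genes. Against all gene models the genes sat in the middle: zag2 in LCM embryos at 3 DAP was above 73.2% of gene models by FPKM, and MADS35 in endosperm above 36.3%.

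Changes with age were asked over 6 libraries per age with cross in the fit. Here and below a change is a log2 fold change ± SE of the later over the earlier age, or of the group named first, tested with edgeR's quasi-likelihood test. It is called where its p, adjusted over every gene fitted by Benjamini and Hochberg's method, is under 0.05. Shares of all genes called belong to edgeR's fits. None is given for DESeq2 or for a fit over all 48 libraries, so their counts are a description. In manual embryos zag1, zag2 and MADS35 all fell between 5 and 13 DAP. zag1 averaged 0.211 ± 0.202 CPM at 13 DAP against 1.97 ± 1.29 CPM at 5 DAP (SD, n = 6 each), a change of -3.15 ± 0.53 (edgeR adjusted p = 0.00011). zag2 averaged 0.424 ± 0.43 CPM at 13 DAP against 7.88 ± 3.99 CPM at 5 DAP, a change of -4.21 ± 0.33 (edgeR adjusted p = 3.4e-08). MADS35 averaged 0.234 ± 0.211 CPM at 13 DAP against 4.4 ± 1.35 CPM at 5 DAP, a change of -4.08 ± 0.44 (edgeR adjusted p = 1.2e-06). For each gene every 13 DAP library lay below every 5 DAP library, and each also fell within either cross. How many of all genes were so separated was not counted. The calls cover 3 of 3 genes, where 33.0% of all genes tested were called lower.

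Between neighbouring ages the fall was called at different steps for different genes. At 7 against 5 DAP only zag2 was called, with 3.34 ± 2.16 CPM at 7 DAP, 7.88 ± 3.99 CPM at 5 DAP and a change of -1.21 ± 0.31 (edgeR adjusted p = 0.0066), where 21.0% of all genes were called lower. zag1 changed by 0.29 ± 0.52 (edgeR adjusted p = 0.7) and MADS35 by -0.61 ± 0.45 (0.31) over that step. Without MB replicate 3 of 7 DAP the zag1 value was -0.19, zag2 stayed called and MADS35 was called too (-1.21, edgeR adjusted p = 0.016). No share of all genes is given for that fit. At 9 against 7 DAP only zag1 was called, with 0.735 ± 0.26 CPM at 9 DAP, 2.5 ± 1.78 CPM at 7 DAP and a change of -1.63 ± 0.52 (edgeR adjusted p = 0.024), where 20.0% were called lower. In BM alone that zag1 change was -2.23 ± 0.39 (edgeR adjusted p = 0.0012). The call was lost without any of 4 libraries, BM replicate 3 or MB replicate 3 of 7 DAP and BM replicate 1 or 3 of 9 DAP, and on both FPKM scales.

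At 11 against 9 DAP none of the 3 genes was called by edgeR or by DESeq2, and none had an unadjusted p under 0.05; the background was 13.1% called lower. At 13 against 11 DAP zag2 and MADS35 were called lower, where 2.81% of all genes were, and zag1 had too few reads for the filter. zag2 averaged 0.424 ± 0.43 CPM at 13 DAP against 1.45 ± 0.593 CPM at 11 DAP, a change of -1.91 ± 0.46 (edgeR adjusted p = 0.032). MADS35 averaged 0.234 ± 0.211 CPM at 13 DAP against 0.824 ± 0.491 CPM at 11 DAP, a change of -1.77 ± 0.49 (edgeR adjusted p = 0.045). Groups overlapped for both. The zag2 call was lost in 7 of 12 fits that left out 1 library (highest adjusted p 0.085) and the MADS35 call in 10 of 12 (0.11). In these fits the library left out was MB at either age, or BM replicate 2 of 11 DAP, for both genes, and for MADS35 also BM replicate 3 of 11 DAP or BM replicate 2 or 3 of 13 DAP. In MB alone the zag2 change was -4.14 ± 0.75 (edgeR adjusted p = 0.0006) and in BM alone -1.14 ± 0.4 (0.64).

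**Figure D2:**
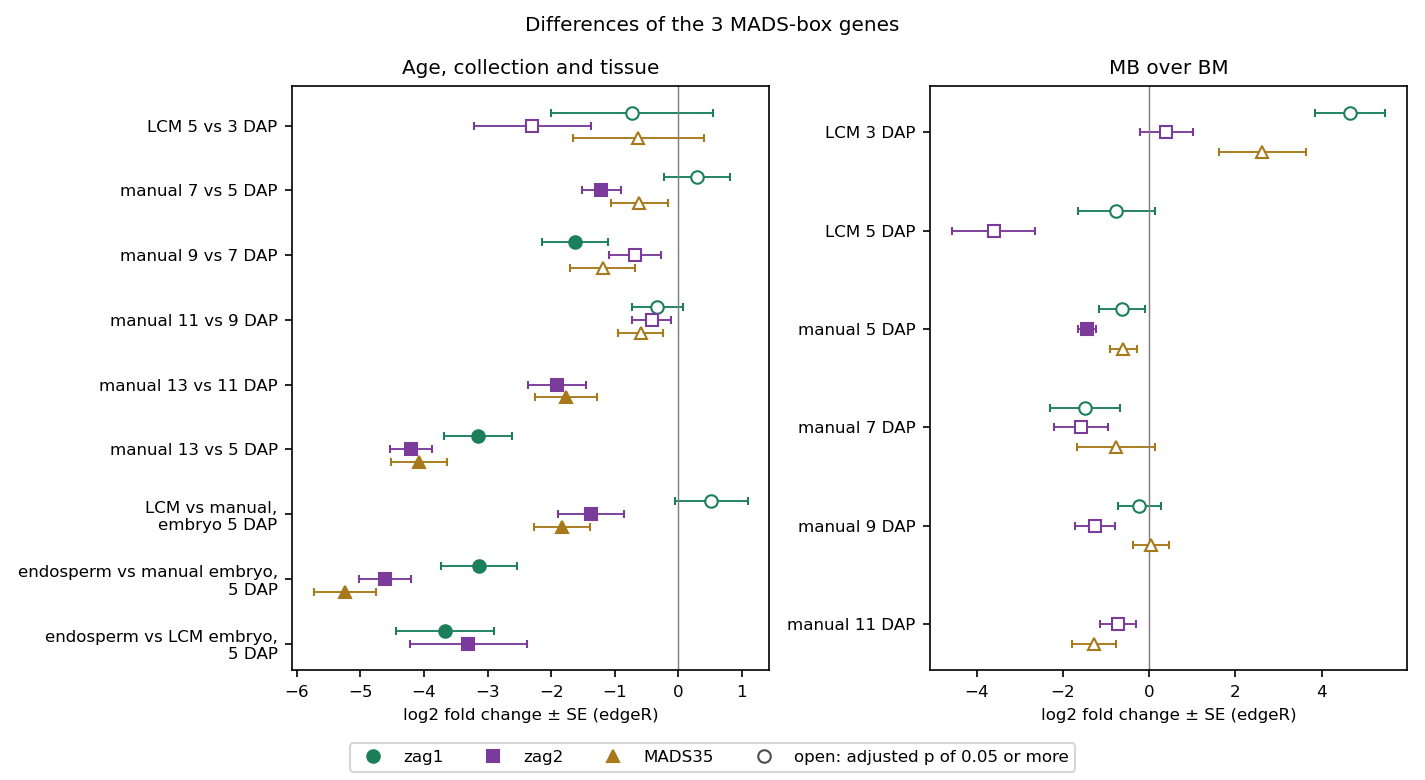
Log2 fold change ± SE (horizontal axes, edgeR) of zag1, zag2 and MADS35, on the left for 9 comparisons of age, collection and tissue and on the right for MB over BM; filled symbols passed an adjusted p of 0.05, and genes with too few reads have no symbol. The filled symbols on the left all lie below 0, down to -5.24 for MADS35 in endosperm against manual embryos, and on the right the only filled symbol is zag2 in manual embryos at 5 DAP (-1.45).

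In LCM embryos none of the 3 was called at 5 against 3 DAP by edgeR, where 7.04% of all genes were called lower; the unadjusted p of 1 was under 0.05, and DESeq2 also called 1. That gene was zag2, with 2.46 ± 2.76 CPM at 5 DAP, 6.72 ± 2.16 CPM at 3 DAP and a change of -2.3 ± 0.92 (edgeR adjusted p = 0.13; DESeq2 adjusted p = 0.014). zag1 changed by -0.73 ± 1.27 and MADS35 by -0.63 ± 1.03. Within the crosses zag2 changed by -4.46 ± 1.08 in MB (edgeR adjusted p = 0.066) and by -0.45 ± 0.63 in BM (0.72). The crosses' own zag1 values had opposite signs: in MB zag1 changed by -3.29 ± 0.98 and in BM by 2.14 ± 0.9 (edgeR adjusted p = 0.11 and 0.22). Without MB replicate 1 of 5 DAP, which held no read of any of the 3 genes, the zag1 value was 0.15 and the MADS35 value 0.01.

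At 5 DAP zag2 and MADS35 were lower in LCM than in manual embryos. zag2 averaged 2.46 ± 2.76 CPM in LCM embryos and 7.88 ± 3.99 CPM in manual embryos (SD, n = 6 each), a change of -1.37 ± 0.52 (edgeR adjusted p = 0.026). MADS35 averaged 0.789 ± 0.541 CPM in LCM embryos and 4.4 ± 1.35 CPM in manual embryos, a change of -1.83 ± 0.44 (edgeR adjusted p = 0.0013), and its groups did not overlap. The 2 genes called lower compare with 41.0% of all genes. zag1 averaged 1.71 ± 1.18 CPM in LCM embryos and 1.97 ± 1.29 CPM in manual embryos, with a fitted change of 0.52 ± 0.57 (edgeR adjusted p = 0.41) whose sign was negative on FPKM and on plain CPM. This comparison depended on scaling more than the others: the median gene stood at -0.8 on plain CPM and at -0.15 after TMM scaling, so the fitted falls of zag2 and MADS35 are smaller than their CPM ratios of -1.68 and -2.48 on the log2 scale. The zag2 call was lost without BM LCM replicate 2 (adjusted p 0.052). In BM alone the zag2 change was -0.56 ± 0.39 (edgeR adjusted p = 0.22) and in MB alone -2.69 ± 0.81 (0.016), while MADS35 was called in both crosses. The endosperm markers summed to 2510 to 24500 CPM in LCM embryos and 2070 to 12300 CPM in manual embryos, and the embryo markers to 670 to 1880 CPM in LCM and 165 to 432 CPM in manual embryos; their part in the differences was not tested.

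By means over both crosses endosperm at 5 DAP had the lowest levels of all 3 genes, though MB embryos at 13 DAP lay below it for zag1 and zag2 (0.0497 CPM each); endosperm was not tested against that age. Against manual embryos zag1 changed by -3.13 ± 0.6 (edgeR adjusted p = 0.0002), with 0.153 ± 0.159 CPM in endosperm and 1.97 ± 1.29 CPM in embryos (SD, n = 6 each). zag2 changed by -4.61 ± 0.41 (edgeR adjusted p = 7.1e-08), with 0.229 ± 0.221 CPM in endosperm and 7.88 ± 3.99 CPM in embryos. MADS35 changed by -5.24 ± 0.49 (edgeR adjusted p = 1.4e-07), with 0.0854 ± 0.106 CPM in endosperm and 4.4 ± 1.35 CPM in embryos. No endosperm library reached any embryo library for any of the genes, a separation that was not counted over all genes. Of all genes 42.2% were called lower in this comparison. The median gene stood at -0.45 on plain CPM and at -0.08 after TMM scaling. The log2 ratios of mean CPM were -3.69 for zag1, -5.11 for zag2 and -5.69 for MADS35.

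Against LCM embryos the endosperm values of zag1 changed by -3.67 ± 0.77 (edgeR adjusted p = 0.00047) and those of zag2 by -3.3 ± 0.92 (edgeR adjusted p = 0.0045), both in the direction in which 39.0% of all genes were called. Groups overlapped through MB LCM replicate 1, which had no read of either gene, and for zag2 also through MB LCM replicate 2. MADS35 had too few reads to be fitted. Whether the endosperm difference varied with the cross was tested against manual embryos: none of the 3 genes was called by edgeR or DESeq2 and none had an unadjusted p under 0.05, with 19.8% of all genes called in either direction. The difference of the differences, MB minus BM, was 1.6 ± 1.34 for zag1, 1.29 ± 0.96 for zag2 and -1.29 ± 1.37 for MADS35.

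The reciprocal crosses were compared within each sample kind, 3 MB against 3 BM libraries. Each gene had a lower mean in MB than in BM in 6 of 8 kinds, and all 3 had a higher mean in MB in LCM embryos at 3 DAP. Of 24 such differences 16 could be fitted, and 1 was called. It was zag2 in manual embryos at 5 DAP, with 4.41 ± 0.401 CPM in MB and 11.4 ± 1.86 CPM in BM (SD, n = 3 each), a change of -1.45 ± 0.21 (edgeR adjusted p = 0.00021), where 14.4% of all genes were called lower in MB. The call held without any single library (highest adjusted p 0.0023) and was lost when all 48 libraries shared 1 estimate of spread (adjusted p 0.15). In the same embryos zag1 changed by -0.63 ± 0.54 (edgeR adjusted p = 0.44), and by 0.2 without BM replicate 3, and MADS35 by -0.6 ± 0.31 (0.17).

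The largest difference in size was that of zag1 in LCM embryos at 3 DAP, and it did not pass the adjusted threshold. zag1 averaged 11.6 ± 5.53 CPM in MB and 0.404 ± 0.231 CPM in BM, a change of 4.67 ± 0.81 with an unadjusted p of 0.00023 and an edgeR adjusted p of 0.21. MADS35 changed by 2.63 ± 1.01 (edgeR adjusted p = 0.59) and zag2 by 0.4 ± 0.61 (0.9). In that comparison edgeR called 3 of 18597 genes, 0.0161%, and none of the 3 described here, of which 2 had an unadjusted p under 0.05. DESeq2 called 1, zag1, with an adjusted p of 2.7e-06, and 1 fit over all 48 libraries called 2. The share of all genes called by either of these fits is not given here, so both counts are a description. Without BM replicate 3 and MB replicate 1, which correlated least with their groups, the zag1 change was 4.43 (edgeR adjusted p = 0.12). Endosperm markers summed to 1620, 3290 and 5180 CPM in MB and 1230, 1930 and 2260 CPM in BM, and embryo markers to 1020, 639 and 504 CPM in MB and 858, 631 and 464 CPM in BM. Of the endosperm markers, betl3 and betl4 were at 0 in BM. The part of these tissues in the zag1 difference was not tested.

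At 5 DAP the LCM embryos showed the other sign. zag2 averaged 0.425 ± 0.662 CPM in MB and 4.5 ± 2.48 CPM in BM, a change of -3.61 ± 0.97 that fell just short of the threshold (edgeR adjusted p = 0.054, with 3.82% of all genes called lower). DESeq2 called it (adjusted p = 0.00059), and so did edgeR without MB replicate 1 (-3.08, adjusted p 0.05) or without MB replicate 3 (-6.53, 0.029); leaving out any other library did not. zag1 changed by -0.76 ± 0.9 (edgeR adjusted p = 0.64), and MADS35 could not be fitted. Whether the cross difference itself changed between 3 and 5 DAP was tested with a term added after the levels were seen. The difference, MB minus BM at 5 DAP less that at 3 DAP, was -5.41 ± 1.39 for zag1, -3.98 ± 1.27 for zag2 and -4.31 ± 1.38 for MADS35 (edgeR adjusted p = 0.15, 0.23 and 0.22). edgeR called none of 20168 genes in that comparison, 0.0%. An unadjusted p under 0.05 was reached by 2676 genes, all 3 of those described here among them. DESeq2 called all 3, and its share of all genes called is not given here.

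In manual embryos at 7 DAP the outcome rested on 1 library. With all 6 libraries zag1 changed by -1.48 ± 0.81, zag2 by -1.58 ± 0.63 and MADS35 by -0.77 ± 0.9, and edgeR called none (adjusted p = 0.32, 0.18 and 0.66), while the unadjusted p of 1 was under 0.05, DESeq2 called 1 and the background was 4.59% called lower. Without MB replicate 3 all 3 genes were called lower in MB, zag1 by -3.47 (edgeR adjusted p = 0.00016), zag2 by -2.92 (0.00012) and MADS35 by -2.77 (0.00071), in a fit that called 8.76% of all genes lower. That library held 12.1 CPM of the 3 genes together, against 1.98 and 1.14 CPM in the other MB libraries and 11.2 to 12.8 CPM in BM. Its endosperm markers summed to 2390 CPM, against 447 and 346 CPM in the other MB libraries and 1680 to 2280 CPM in BM. The library was set apart by these same levels, so the fit without it is a description.

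From 9 DAP on the differences were smaller or rested on few reads. At 9 DAP zag2 changed by -1.25 ± 0.46 in MB over BM (edgeR adjusted p = 0.57), zag1 by -0.23 ± 0.5 and MADS35 by 0.04 ± 0.41; at 11 DAP zag2 changed by -0.72 ± 0.41 (0.26) and MADS35 by -1.28 ± 0.5 (0.1). Neither edgeR nor DESeq2 called a member at these ages, and 1 had an unadjusted p under 0.05 at each; 0.0145% of all genes were called lower at 9 DAP and 7.42% at 11 DAP. At 13 DAP all 3 genes were without overlap between the crosses in measured values, lower in MB, but had too few reads for the filter. Of 30429 gene models with a read in these 6 libraries, 22.1% were likewise lower in MB without overlap. A count of 0 in MB replicate 1 allows up to 0.236 CPM, above the lowest BM value of zag1, 0.215 CPM. For MADS35 the nearest MB and BM libraries held 3 reads each, 0.232 and 0.237 CPM. zag1 averaged 0.0497 ± 0.0431 CPM in MB and 0.372 ± 0.148 CPM in BM, zag2 averaged 0.0497 ± 0.0431 CPM in MB and 0.799 ± 0.195 CPM in BM, and MADS35 averaged 0.0772 ± 0.134 CPM in MB and 0.391 ± 0.139 CPM in BM (SD, n = 3 each); 11.3% of all genes fitted were called lower. With no filter zag2 was called (-3.73, edgeR adjusted p = 0.0018), and zag1 and MADS35 were not. In endosperm no member could be fitted, and the crosses overlapped.

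The fall between 5 and 13 DAP was set against the cross in a test of its own. For zag2 the change in MB minus that in BM was -2.29 ± 0.74 (edgeR adjusted p = 0.029), with -6.02 ± 0.53 in MB alone and -3.73 ± 0.29 in BM alone. The MB value rests on 2 reads at 13 DAP. zag1 had -1.99 ± 1.18 (edgeR adjusted p = 0.24) and MADS35 -1.61 ± 0.94 (0.23), and 24.0% of all genes were called in either direction. The zag2 call was lost without BM replicate 2 or MB replicate 1 of 13 DAP and in DESeq2 (adjusted p 0.089), and on log2(FPKM + 1), where small values weigh less, the value was 0.54 (limma adjusted p = 0.06). The same test for LCM against manual embryos at 5 DAP gave -0.11 ± 1.14 for zag1, -2.15 ± 0.89 for zag2 (edgeR adjusted p = 0.16) and -1.08 ± 0.83 for MADS35, none called by edgeR or DESeq2, 1 with an unadjusted p under 0.05, and 5.78% of all genes called in either direction.

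By medians, endosperm markers differed between the crosses in the direction of the 3 genes in manual embryos at 5, 7 and 13 DAP and LCM embryos at 3 DAP. They did not in manual embryos at 9 and 11 DAP or LCM embryos at 5 DAP. Marker medians at 7 DAP were 447 CPM in MB and 2100 CPM in BM, beside 1.98 and 12.5 CPM of the 3 genes. In LCM embryos they were 3290 and 1930 CPM at 3 DAP, beside 19.7 and 5.29 CPM, and 6800 and 5420 CPM at 5 DAP, beside 3.09 and 9.31 CPM. At 13 DAP the 3 genes together had 0 to 0.386 CPM in MB libraries and 1.27 to 2.03 CPM in BM libraries, and endosperm markers had 42.7 to 150 CPM in MB and 801 to 1400 CPM in BM. At 5 DAP the 3 genes had 8.13 to 11.7 CPM in MB and 15.7 to 20.6 CPM in BM, and endosperm markers 2070 to 2110 CPM in MB and 10800 to 12300 CPM in BM. At 9 DAP the 3 genes had 2.32 to 3.83 CPM in MB and 2.63 to 6.91 CPM in BM, while endosperm markers had 1190 to 1220 CPM in MB and 269 to 1160 CPM in BM. At 11 DAP the 3 genes had 1.82 to 2.22 CPM in MB and 3.26 to 4.55 CPM in BM, without overlap, while endosperm markers had 1120 to 1370 CPM in MB and 1000 to 1920 CPM in BM, with overlap and the higher median in MB. In endosperm itself the 3 genes had 0.276 to 0.662 CPM beside 1090 to 3220 CPM of endosperm markers. The library with the most endosperm markers, MB LCM replicate 1 at 5 DAP with 24500 CPM, had no read of the 3 genes. Of the 12 endosperm markers, ebe2 was at 0 in MB at 13 DAP. The part of carried-over tissue in the levels of the 3 genes was not tested.

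**Figure D3:**
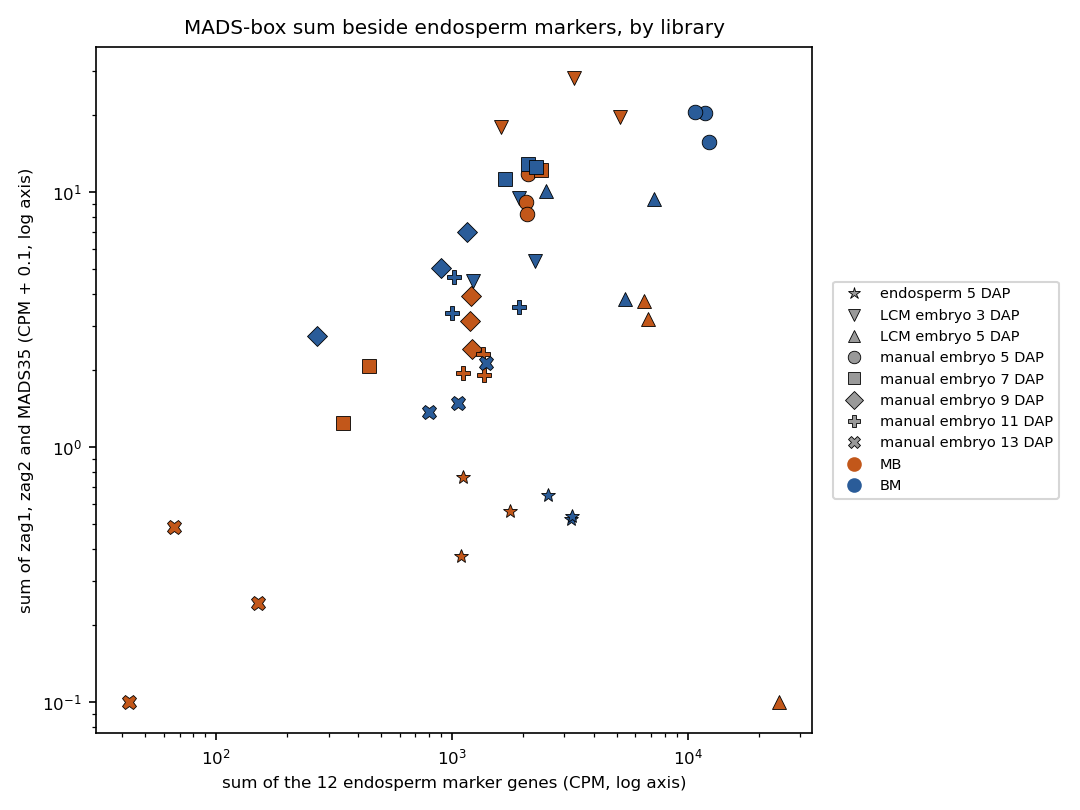
Sum of zag1, zag2 and MADS35 (CPM + 0.1, vertical log axis) against the sum of 12 endosperm markers (CPM, horizontal log axis) in 48 libraries; colour gives the cross and shape the sample kind. Endosperm libraries (stars) lie low, at 0.276 to 0.662 CPM of the 3 genes, and MB 13 DAP libraries lie lowest on the horizontal axis, at 42.7 to 150 CPM.

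Other MADS-box genes, 30 gene models in a list made by name that may miss members of the family, give the setting. They include the SEPALLATA-type zmm6, zmm8, zmm24, zmm27 and zmm31, whose products pair with AGAMOUS-type proteins, the AGL6-type zag3, the stamen and petal identity genes si1, zmm16 and zmm29, and zmm19, the gene behind the Tunicate pod corn mutant. In manual embryos at 13 against 5 DAP 19 of 25 that could be fitted fell and 2 rose, where 33.0% of all genes were called lower and 30.3% higher, with a median of -3.9 against -0.03 for all genes. zmm24 had 0.252 ± 0.163 CPM at 13 DAP and 4.4 ± 2.61 CPM at 5 DAP, a change of -3.9 ± 0.32 (edgeR adjusted p = 6.4e-08), and zag3 changed by -4.09 ± 0.58 (2.1e-05). The 2 that rose were zmm16 (0.47 ± 0.13, edgeR adjusted p = 0.0053) and GRMZM2G492156, one of the zmm2 models (1.08 ± 0.2, 0.00028). In endosperm against manual embryos 17 of 25 were lower and 2, MADS47 and MADS62, higher, where 42.2% of all genes were called lower and 37.7% higher. Against LCM embryos 20 of 21 were lower, where 39.0% of all genes were.

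LCM against manual embryos at 5 DAP had 10 of 25 higher and 4 lower, where 35.4% of all genes were called higher and 41.0% lower, so the share of higher calls was near that of all genes. Among the higher ones MADS47 changed by 2.61 ± 0.21 (edgeR adjusted p = 9.5e-09) and zmm19 by 1.5 ± 0.32 (0.00061). zmm24 (-1.1 ± 0.33, edgeR adjusted p = 0.0069), zmm29, MADS18 and MADS34 were on the lower side with zag2 and MADS35. In MB against BM manual embryos at 5 DAP 8 of 24 were lower in MB and none higher, where 14.4% of all genes were called lower and 12.9% higher; zmm24 had 2.04 ± 0.541 CPM in MB and 6.75 ± 0.337 CPM in BM, a change of -1.8 ± 0.28 (edgeR adjusted p = 0.00045), beside the -1.45 of zag2.

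Among the 30 genes 14 had their highest group mean in MB LCM embryos at 3 DAP, as zag1 did, and 13 of these were at 1 CPM or more. How many of all gene models were highest there was not counted. Libraries of this kind correlated least with their groups (0.92 to 0.96). There zmm6 had 53.2 ± 45.9 CPM in MB and 6.35 ± 3.38 CPM in BM (SD, n = 3 each). zmm27 had 22.6 ± 12.9 CPM in MB and 1.4 ± 0.395 CPM in BM. zmm31 had 17.4 ± 16.6 CPM in MB and 0.582 ± 1.01 CPM in BM. zag3 had 4.68 ± 5.91 CPM in MB and no read in BM. None of the 19 fitted passed the adjusted threshold in that comparison. The family members that took another course included MADS42, with 77.1 CPM in MB and 126.0 CPM in BM, and si1, with 7.2 CPM in MB and 9.74 CPM in BM.

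A further gene, m1 (GRMZM2G010669), taken as a relative of zag2, has an entry that also carries the name ov23. It is outside the list and was chosen after its values were seen. It averaged 0.172 ± 0.235 CPM at 13 DAP and 3.22 ± 1.27 CPM at 5 DAP in manual embryos (SD, n = 6 each). In manual embryos at 5 DAP m1 had 2.11 ± 0.429 CPM in MB and 4.33 ± 0.35 CPM in BM (SD, n = 3 each). No test is given for it.

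**Figure D4:**
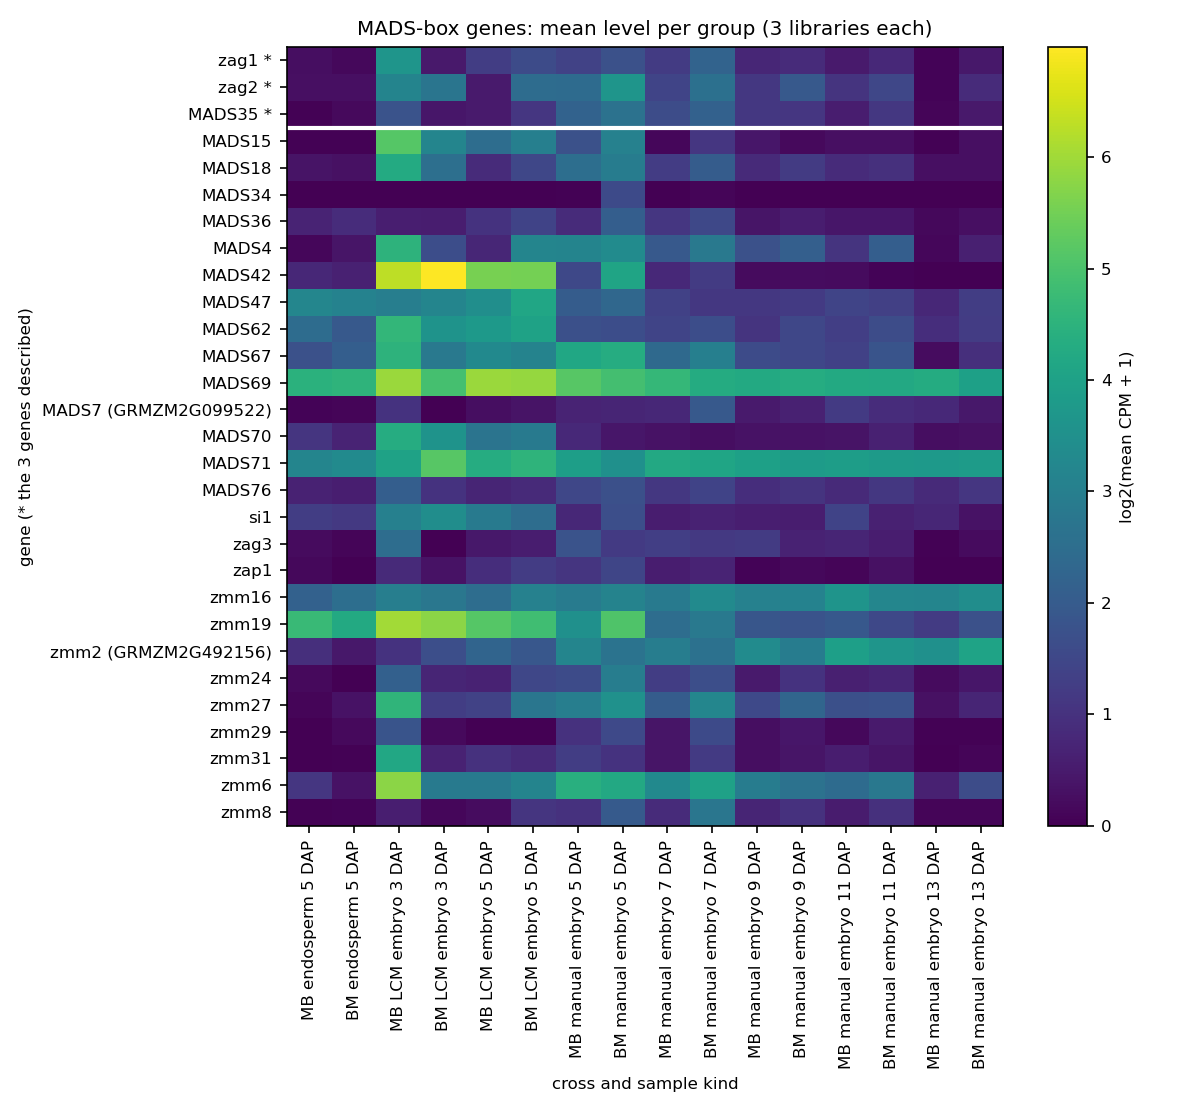
Mean level of MADS-box genes (rows; zag1, zag2 and MADS35 above the white line, then the listed genes that reach 1 CPM in some group) in 16 groups (columns, MB left of BM within a sample kind), as log2(mean CPM + 1) over 3 libraries. The MB LCM column at 3 DAP is bright for zag1 (11.6 CPM), zmm6 (53.2 CPM), zmm27 (22.6 CPM) and zmm31 (17.4 CPM), and most rows darken towards 13 DAP.

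Likeness of pattern was measured as the Pearson correlation of log2(mean CPM + 1) over the 16 groups, among 19977 gene models that reached 5 CPM in some group. The 16 points share their sample kinds in pairs, and the values are a description. The genes most like zag1 were GRMZM2G470882 (r = 0.928), csu850 (0.923) and the SEPALLATA-type zmm31 and zmm27 (0.916 each), all highest in MB LCM embryos at 3 DAP. Those most like zag2 were MADS4 (0.907), GRMZM2G114356 (0.903), MADS18 (0.897), zmm24 (0.895) and m4 (0.877). At least 3 of these 5 were MADS-box genes, those on the list, which does not hold m4. MADS35 was most like HDZIV14_OCL14 (0.932), GRMZM2G005195 (0.926), TIDP2878 (0.917), GRMZM2G113135 (0.909) and zmm24 (0.909), all highest in BM manual embryos at 5 DAP. Among themselves zag2 and MADS35 correlated at 0.804, zag1 and MADS35 at 0.723 and zag1 and zag2 at 0.72. The 3 genes were candidates too, so any not among the 5 most like genes must lie below those.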

How the data were processed

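Messenger RNA was measured in 48 libraries, 3 for each of 16 groups. The authors deposited read counts per gene, as raw whole numbers, and FPKM values, per the file headers. Reads were checked with FastQC and processed with TopHat, HTSeq and Cufflinks 2.2.1, per the submitters' processing notes, which give no order. The genome build is not given in the sources used here, nor is strandedness, and overlapping and antisense genes, and reads shared by close relatives, could not be told apart. Groups follow the labels, and replicate numbers did not pair libraries. CPM was computed from the counts. Each comparison was fitted on its own libraries with edgeR 4.0.16 (R 4.3.3) using TMM scaling, its expression filter, the quasi-likelihood test and Benjamini-Hochberg adjustment over all genes tested, with cross as an additive term where both ages or tissues held both crosses. There were 20 planned comparisons and 1 added. DESeq2 1.42.0, limma 3.58.1 on log2(FPKM + 1) and log2(FPKM + 0.1), other filters and scaling, and fits without single libraries were alternatives. The code was tested on simulated data. Genes named are the 3 members, listed MADS-box genes at 1 CPM or more in some group, the marker lists, and the 5 genes most like each member, of which 1 is not reported here. Names came from RefSeq's table for Zm-B73-REFERENCE-NAM-5.0, which matched 18775 of 39656 gene models. The members and lists were chosen with earlier results of these data known.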

Additional observations from a re-analysis of the deposited data

Results flagged for a closer look

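The fall of zag2 between 5 and 13 DAP in manual embryos differed between the crosses by a test of the difference itself: the change in MB minus that in BM was -2.29 ± 0.74 (edgeR adjusted p = 0.029). The call was lost without BM replicate 2 or MB replicate 1 of 13 DAP, in 1 fit over all 48 libraries (adjusted p 0.41), in DESeq2 (0.089), with a replicate block (0.06) and on log2(FPKM + 0.1) (limma, -0.94, 0.11). On log2(FPKM + 1) the sign turned, to 0.54 (limma adjusted p = 0.06). zag2 had 2 reads over the 3 MB libraries at 13 DAP, against 44 over the 3 BM libraries. Endosperm markers summed to 42.7 to 150 CPM in MB and 801 to 1400 CPM in BM at that age, and their part in the difference was not tested.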

How the results depend on the processing

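Low read counts limit most values, and 1 read decides several of them. Of 983 values of single genes recomputed under other settings, 891 kept their direction and their side of the threshold, 38 lost a call, 32 gained one and 22 changed sign. Where no cause is named, the cause was not tested. The counts of the 3 genes called below come without the share of all genes called by the same fit, so they are a description. The falls of all 3 genes at 13 against 5 DAP and in endosperm against manual embryos stayed called in every fit without 1 library.

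In 1 fit over all 48 libraries the number of the 3 genes called was 1 at 5 against 3 DAP in LCM embryos, 2 for the crosses in LCM embryos at 3 DAP, 1 at 5 DAP, 0 in manual embryos at 5 DAP and 1 at 13 DAP. It was 3 for the cross effect on LCM age and 0 for the cross effect on 13 against 5 DAP. DESeq2 called 1 at 5 against 3 DAP in LCM embryos, 2 at 9 against 7 DAP, 1 for the crosses in LCM embryos at 3 DAP, 1 at 5 DAP and 1 in manual embryos at 7 DAP. It called 3 for the cross effect on LCM age and 0 for that on 13 against 5 DAP. No share of all genes is given for either kind of fit. With a minimum of 1 CPM in 3 libraries 1 was called at 13 against 11 DAP, zag2, and MADS35 did not reach that minimum. With no filter 1 was called for the crosses at 13 DAP.

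The fits on FPKM took genes with a mean of at least 1 FPKM. On log2(FPKM + 0.1) and on log2(FPKM + 1) alike, 0 were called at 9 against 7 DAP and 1 for the crosses in LCM embryos at 5 DAP. For the cross effect on 13 against 5 DAP 0 were called. In endosperm against LCM embryos 1 was called, zag2, while zag1 lay below that mean and was not fitted. On log2(FPKM + 1) 1 was also called at 5 against 3 DAP in LCM embryos and 1 for the cross effect on endosperm. The zag1 value for LCM against manual embryos was -0.34 with 0.1 added and -0.04 with 1 added. With 1 added the cross effect on 13 against 5 DAP was 0.54 for zag2 and 0.14 for MADS35, and that on endosperm was 0.29 for MADS35.

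In BM libraries alone 1 was called in LCM against manual embryos, 0 at 13 against 11 DAP and 2 at 9 against 7 DAP, MADS35 changed by 0.02 at 11 against 9 DAP and zag1 by 2.14 at 5 against 3 DAP in LCM embryos. In MB libraries alone 1 was called at 11 against 9 DAP and 0 at 7 against 5 DAP, where zag1 changed by -0.16. At 9 against 7 DAP 0 were called, and zag1, the gene called over both crosses, was not fitted there. At 13 against 11 DAP 1 was called, zag2, and neither zag1 nor MADS35 was fitted.

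Without single libraries the number called was 1 to 2 at 7 against 5 DAP, 0 to 2 at 9 against 7 DAP, 0 to 2 at 13 against 11 DAP and 1 to 2 in LCM against manual embryos. For the crosses it was 0 to 1 in LCM embryos at 5 DAP, 0 to 3 in manual embryos at 7 DAP and 1 to 1 at 13 DAP, in the 3 fits that held a member. For the cross effects it was 0 to 2 on 13 against 5 DAP (2 without MB replicate 3 of 13 DAP) and 0 to 1 on LCM against manual embryos (1 without MB LCM replicate 3). At 5 against 3 DAP in LCM embryos zag1 spanned -1.48 to 0.15 and MADS35 -1.15 to 0.01. At 7 against 5 DAP zag1 spanned -0.19 to 0.58. For MB over BM zag1 spanned -1.02 to 0.2 at 5 DAP and -0.57 to 0.05 at 9 DAP, and MADS35 -0.17 to 0.35 at 9 DAP. The cross effect of zag2 on endosperm spanned -0.0042 to 2.36, lowest without MB endosperm replicate 1, and that of zag1 on LCM against manual embryos -0.95 to 0.45.

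Same-numbered replicates did not deviate together: their correlations ran between -0.215 and 0.317, and no comparison had all pairs above 0.1. With a replicate block 1 was called for the crosses in LCM embryos at 5 DAP, 0 for the cross effect on 13 against 5 DAP, 0 at 13 against 11 DAP and 0 at 9 against 7 DAP.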
